A study of Homo sapiens with 12 samples.

Results

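The transcripts of 10 enzymes that make, interconvert or inactivate androgens were measured in C4-2 cells after knockdown of choline kinase alpha (CHKA). They are the 5α-reductases SRD5A1 and SRD5A3, the 17β-hydroxysteroid dehydrogenases HSD17B4, HSD17B6, HSD17B10 and HSD17B11, the aldo-keto reductase AKR1C3 and the glucuronosyltransferases UGT2B11, UGT2B15 and UGT2B17. The genes were listed by name and matched through their Ensembl identifiers, and all 10 were among the 54127 genes in the count files. C4-2 is a castration-resistant human prostate cancer line derived from LNCaP. The 6 siCHKA samples received a pool of siRNAs against CHKA and the 6 siNT samples a nontargeting pool, each at 50 nM with Lipofectamine RNAiMAX by reverse transfection, and both groups were grown in RPMI with 10% FBS. The knockdown was transient, in 1 cell line, and the sample labels give no time after transfection. RNA came from flow-sorted cells, and the labels do not name the gate.

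Active androgens arise through a series of enzymatic steps that prostate cells can carry out on circulating or adrenal precursors. Reductive 17β-hydroxysteroid dehydrogenases and AKR1C3 turn androstenedione into testosterone, and 5α-reductase turns testosterone into dihydrotestosterone, the most potent natural androgen. Other dehydrogenases oxidize the steroids back, or regain dihydrotestosterone from its 3α-reduced metabolite androstanediol. UGT2B enzymes attach glucuronic acid to androgens and their metabolites, which ends their activity and makes them soluble. In LNCaP-derived cells UGT2B15 and UGT2B17 are known to be repressed by androgen.

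Reads counted on genes ranged from 12158361 to 20670479 in the siCHKA samples and from 10685184 to 24246055 in the siNT samples, so that 3 counts, taken here as the limit of detection, corresponded to 0.124 to 0.281 CPM (reads of a gene relative to all reads on genes) before TMM scaling. All other CPM are given after TMM scaling. The limit covers counting error only. CHKA itself averaged 2.75 ± 1.03 CPM in the knockdown and 40.7 ± 2.55 CPM in the controls (SD, n = 6 each), and no siCHKA sample reached the lowest siNT sample. The study's legends name 6 biological replicates for a plot of single genes but biological triplicate experiments for its list of changed genes. The labels do not say whether the 6 samples of a group were separate cultures, so the number of independent cultures is not settled. The p-values then measure only the spread between these samples, which may be technical. Among the siCHKA samples, replicates 1, 3 and 5 stood apart from replicates 2, 4 and 6: the chi-square per degree of freedom between counts was 7.55 to 14.4 for the 9 pairs across these sets and 1.83 to 5.71 for the 6 pairs within them. Pairs of siNT samples split by the same numbers gave 1.86 to 13.8 across and 3.42 to 17.7 within. The labels name no batch, so results are also given without either set where that changes them. The 9 luminal markers summed (KLK3, KRT8 and others) each had a mean of at least 1 CPM, with totals of 4325 to 5524 CPM after siCHKA and 5221 to 6623 CPM after siNT. Of the markers of other cells, the basal genes KRT5 and TP63, the stromal genes COL1A2 and LUM, the lymphoid gene CD3E and the endothelial gene CDH5 had at most 3 counts in every sample. The stromal list of 5 genes, 1 of them at 1 CPM or more, nevertheless summed to 25.1 to 31.5 CPM after siCHKA and 11.6 to 18.9 CPM after siNT. The basal list of 3 summed to 1.57 to 2.10 against 0.98 to 1.46 CPM, the haematopoietic list of 3 to 3.93 to 5.97 against 2.65 to 3.94 CPM, and the 2 of 3 endothelial genes matched by identifier to 1.13 to 1.86 against 2.05 to 3.65 CPM. The part of these markers in the enzyme results was not tested. In RNA from a whole population, fewer cells of a type and less RNA per cell cannot be told apart.

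How well each enzyme could be measured differed, because single-end reads of 40 bases were counted only where they aligned to 1 place. UGT2B15 (ENSG00000196620) and UGT2B17 (ENSG00000197888) lie on the minus strand of chromosome 4, at chr4:68646597-68670652 and chr4:68537173-68576413 of GRCh38. UGT2B11 (ENSG00000213759) lies further along the same strand, at chr4:69199951-69214748. The coding sequences of UGT2B15 and UGT2B17 have 1590 bases each without the stop codon, of which 55 differ (96.5% identical). They share 647 windows of 40 bases, and a read from such a window cannot be given to either gene. The windows of 80 coding bases with the fewest and the most differences, counted in the coding sequence from its start, are shown to make this concrete, each within 1 coding exon. From base 542 to base 621 both genes read the same, at chr4:68669998-68670077 in UGT2B15 and chr4:68567864-68567943 in UGT2B17 (GRCh38, minus strand, from the canonical transcripts of GENCODE 44).
UGT2B15 and UGT2B17: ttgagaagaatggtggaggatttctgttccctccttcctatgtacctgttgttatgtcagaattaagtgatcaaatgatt
From base 356 to base 435 they differ at 10 positions, marked in capitals, at chr4:68670184-68670263 and chr4:68568050-68568129 (minus strand), and a read from there can be told apart.
UGT2B15: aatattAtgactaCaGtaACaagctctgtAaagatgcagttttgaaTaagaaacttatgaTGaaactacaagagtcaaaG
UGT2B17: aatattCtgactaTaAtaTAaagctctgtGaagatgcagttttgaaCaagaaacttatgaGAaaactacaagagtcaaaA

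A 40-base window was called unique if no other gene's transcripts held it and it occurred at most 1 time in the genome. Over the whole canonical transcript, 65.1% of the windows of UGT2B15 and 68.8% of those of UGT2B17 were unique, with 649 shared between them. For UGT2B11 the share was 43.4%, with 558 windows shared with the pseudogene UGT2B25P, and 20.7% of its exon bases overlapped another gene. AKR1C3 (ENSG00000196139, plus strand, chr10:5035354-5107686) had 78.3% unique windows and shared 189 with AKR1C2. The other 6 enzymes had between 87.8% (SRD5A1) and 100% (HSD17B10) unique windows, so their counts rested on most of the transcript. These shares came from a later annotation than the one the reads were counted on, and from exact matches only.

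After siCHKA, 3 of the 10 enzymes were lower and 1 was higher. HSD17B6 fell most, to 38.5% of its siNT level, followed by HSD17B11 at 60.9% and HSD17B4 at 88.9%, while SRD5A3 rose to 115% (from the fitted fold changes). SRD5A1, HSD17B10 and UGT2B15 passed the filter on low counts and were not called, and AKR1C3, UGT2B11 and UGT2B17 had too few reads to enter the test. A change was called at an adjusted p below 0.05 from edgeR's quasi-likelihood test, with Benjamini-Hochberg adjustment over the 14501 genes tested. Among all genes tested 30.1% were lower and 32.1% higher by this rule, and nothing particular to the enzymes is read from 3 lower and 1 higher of the 7 that were tested. The median log2 fold change of the 7 tested enzymes was -0.11 and the median size of change 0.17, against 0.035 and 0.31 over all genes tested. Groups that did not overlap in CPM were found for HSD17B6 and HSD17B11 (lower) and SRD5A3 (higher), against 21.5% of all genes lower and 19.1% higher without overlap. Without siCHKA replicates 1, 3 and 5, 4 enzymes were lower and 0 higher by edgeR's test, with DESeq2 on all samples 4 lower and 1 higher, and without replicates 2, 4 and 6 the counts were again 3 and 1. At an unadjusted p below 0.05, 1 enzyme (SRD5A3) was higher without replicates 1, 3 and 5 (unadjusted p = 0.0372). These directions are relative to the TMM scaling, which set factors of 1.02 to 1.07 for the siCHKA samples and 0.92 to 0.97 for the siNT samples. With total reads alone, the median log2 fold change of all genes moved up by 0.153, the counts over all genes moved from 4371 lower and 4650 higher to 2995 lower and 6666 higher, and 2 enzymes (HSD17B6 and HSD17B11) were lower and 1 (SRD5A3) higher.

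**Figure D1:**
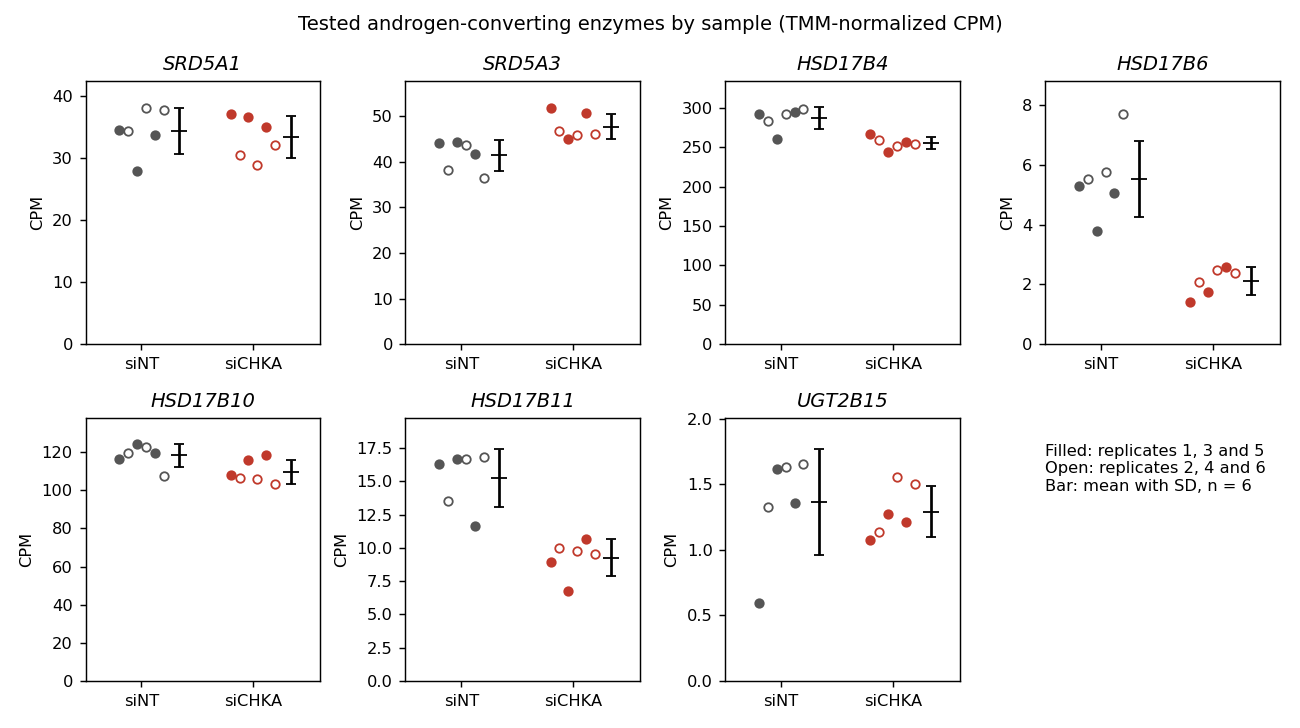
TMM-normalized CPM (vertical axes, from 0) of the 7 tested enzymes in the 6 siNT (grey) and 6 siCHKA (red) samples, with replicates 1, 3 and 5 filled and the mean and SD beside the points. HSD17B6 and HSD17B11 lie lower and SRD5A3 higher in every siCHKA sample than in any siNT sample, and the groups overlap for the other 4.

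SRD5A1 (ENSG00000145545, plus strand, chr5:6633427-6674386), a steroid 5α-reductase, showed no called difference. Its lowest, median and highest values were 28.9, 33.6 and 37.1 CPM after siCHKA and 27.9, 34.4 and 38.0 CPM after siNT. The ranges nearly coincided. Its log2 fold change was -0.04 (standard error 0.08, edgeR adjusted p = 0.684), with a 95% interval of 87.2% to 108% of the siNT level. Replicates 1, 3 and 5 of siCHKA (35.0 to 37.1 CPM) were all above replicates 2, 4 and 6 (28.9 to 32.2 CPM), and the log2 fold change was -0.17 (adjusted p = 0.0889) without the former and 0.09 (adjusted p = 0.401) without the latter. With total reads alone its direction turned as well, to 0.11 (adjusted p = 0.22).

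SRD5A3 (ENSG00000128039, plus strand, chr4:55346213-55373100) was the enzyme that rose. It was named as a steroid 5α-reductase and is best established as the polyprenol reductase that supplies dolichol for protein N-glycosylation. Its lowest, median and highest values were 45.0, 46.4 and 51.6 CPM after siCHKA and 36.5, 42.7 and 44.3 CPM after siNT. Every siCHKA sample was above every siNT sample, by a narrow gap. The log2 fold change was 0.20 (standard error 0.06, edgeR adjusted p = 0.00747; two-sided exact permutation test on log2 CPM, p = 0.00216, the smallest possible with 6 against 6). Without siCHKA replicates 1, 3 and 5 the log2 fold change was 0.15 and the call was lost (adjusted p = 0.0587), and with total reads alone it was 0.35 (adjusted p = 2.15e-05). Of the exon bases of SRD5A3, 4.88% overlapped another gene. SRD5A2, the third gene of that name, could not be matched by its identifier and was not analysed here.

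HSD17B6 (ENSG00000025423, plus strand, chr12:56752161-56787790) oxidizes 3α-androstanediol to dihydrotestosterone, a step of the backdoor route that does not pass through testosterone. It was a low transcript, with 235 reads in the siCHKA samples together and 505 in the siNT samples. Its lowest, median and highest values were 1.40, 2.23 and 2.58 CPM after siCHKA and 3.79, 5.41 and 7.69 CPM after siNT. No siCHKA sample reached the lowest siNT sample. The log2 fold change was -1.38 (standard error 0.17, edgeR adjusted p = 1.96e-06), which leaves 38.5% of the siNT level with a 95% interval of 30.6% to 48.4% (exact permutation test, two-sided, p = 0.00216). Of all genes tested, 4.37% changed by more in either direction. The log2 fold change was -1.24 without siCHKA replicates 1, 3 and 5 and -1.55 without replicates 2, 4 and 6, and it was called in all 20 other fits.

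HSD17B11 (ENSG00000198189, minus strand, chr4:87336515-87391188), a lipid droplet-associated dehydrogenase that oxidizes androstanediol to androsterone, fell as well. Its lowest, median and highest values were 6.76, 9.67 and 10.7 CPM after siCHKA and 11.7, 16.5 and 16.8 CPM after siNT. The highest siCHKA sample lay about 1 CPM below the lowest siNT sample. Its log2 fold change was -0.72 (standard error 0.11, edgeR adjusted p = 3.38e-05), or 60.9% of the siNT level with a 95% interval of 52.2% to 71.0% (exact permutation test, two-sided, p = 0.00216). Of all genes tested, 18.5% changed by more. The 20 other fits gave -0.81 to -0.56 and called it lower each time. Of its exon bases, 6.57% overlapped another gene.

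HSD17B4 (ENSG00000133835, plus strand, chr5:119452465-119637199) encodes the peroxisomal multifunctional enzyme, which serves the beta-oxidation of branched and very long chain fatty acids and also oxidizes 17β-hydroxysteroids. Its level was 244, 256 and 266 CPM (lowest, median and highest) after siCHKA and 261, 292 and 299 CPM after siNT. The ranges overlapped, because siCHKA replicate 1 lay above siNT replicate 3, the lowest of its group. This is a log2 fold change of -0.17 (standard error 0.05, edgeR adjusted p = 0.00403; exact permutation test, two-sided, p = 0.00433), or 88.9% of the siNT level with a 95% interval of 83.5% to 94.6%. Most tested genes, 70.3%, changed by more. With total reads alone the difference was -0.02 and no longer called (adjusted p = 0.744).

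HSD17B10 (ENSG00000072506, minus strand of chromosome X, 53431258 to 53434370) is a mitochondrial dehydrogenase that acts on steroids and on isoleucine breakdown and is also a subunit of mitochondrial ribonuclease P. Its level was 103, 107 and 118 CPM after siCHKA and 107, 120 and 124 CPM after siNT (lowest, median and highest). Replicates 2, 4 and 6 of siCHKA lay below every siNT sample, and replicates 1, 3 and 5 lay inside the siNT range. Between the groups the log2 fold change was -0.11 (standard error 0.05, edgeR adjusted p = 0.0644, so not called; exact permutation test, two-sided, p = 0.0303, unadjusted), with a 95% interval of 86.4% to 99.1% of the siNT level. This difference sat at the threshold. It was called without siCHKA replicate 3 (adjusted p = 0.0463), without siCHKA replicate 5 (adjusted p = 0.031), without siNT replicate 6 (adjusted p = 0.0204), without siCHKA replicates 1, 3 and 5 (-0.18, adjusted p = 0.0108) and with DESeq2 (-0.12, adjusted p = 0.0316), while with total reads alone the value was 0.04 (adjusted p = 0.441). Replicates 1, 3 and 5 of siCHKA (108 to 118 CPM) were all above replicates 2, 4 and 6 (103 to 107 CPM).

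AKR1C3, which reduces androstenedione to testosterone and is often raised in castration-resistant tumours, was close to the limit of detection in these cells. The siCHKA samples held 14 reads together, from 0 to 4 per sample, and the siNT samples 13, from 1 to 6 per sample. Reads were at or under 3 in all but 1 sample of each group. Without the filter the log2 fold change was -0.17 with a 95% interval of -1.27 to 0.93 (edgeR adjusted p = 0.866). Changes inside that interval could not be told apart from each other at this depth.

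**Figure D2:**
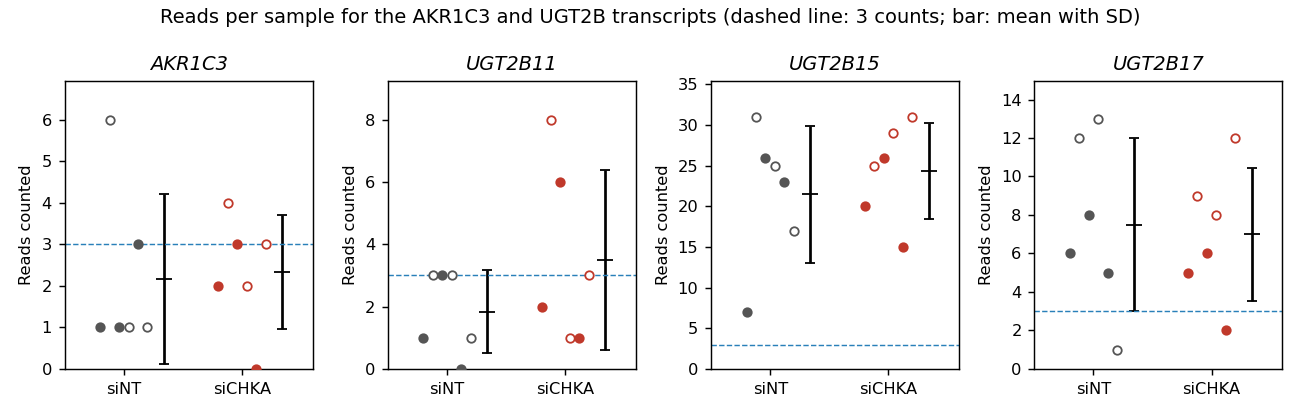
Reads counted per sample (vertical axes, from 0) for AKR1C3, UGT2B11, UGT2B15 and UGT2B17 in the 6 siNT (grey) and 6 siCHKA (red) samples, not corrected for depth, with replicates 1, 3 and 5 filled, the mean and SD beside the points and 3 counts as a dashed line. UGT2B15 lies above the line in all samples (7 to 31 reads), while AKR1C3 has 0 to 6 reads.

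Of the glucuronosyltransferases, UGT2B15 was the one with enough reads to be tested. It conjugates dihydrotestosterone and androstanediol. Its lowest, median and highest values were 1.08, 1.24 and 1.56 CPM after siCHKA and 0.60, 1.48 and 1.65 CPM after siNT, on 146 and 129 reads. The siCHKA samples fell inside the siNT range. The log2 fold change was -0.08 (standard error 0.20, edgeR adjusted p = 0.726; exact permutation test, two-sided, p = 0.961), with a 95% interval of 72.3% to 123% of the siNT level. Differences inside that interval could not be told apart from each other at this depth. Its sign turned without siCHKA replicates 1, 3 and 5 (0.01, adjusted p = 0.976) and with total reads alone (0.07, adjusted p = 0.769).

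UGT2B17, which conjugates testosterone and is absent from the genome of some people, had 42 reads in the siCHKA samples, 2 to 12 per sample, and 45 in the siNT samples, 1 to 13 per sample. UGT2B11, whose steroid substrates are less well defined, had 21 reads after siCHKA, 1 to 8 per sample, and 11 after siNT, 0 to 3 per sample. In both cases the groups overlapped. Without the filter the log2 fold change of UGT2B17 was -0.39 (95% interval -1.10 to 0.32, edgeR adjusted p = 0.438) and that of UGT2B11 0.60 (95% interval -0.51 to 1.70, adjusted p = 0.448). All siCHKA values of UGT2B17 in replicates 1, 3 and 5 were below those in replicates 2, 4 and 6. The remaining paralogues were at the same low counts: UGT2B4 had 18 reads after siCHKA and 23 after siNT, UGT2B7 6 and 3, UGT2B10 8 and 2, and UGT2B28, whose coding sequence is 97.04% identical to that of UGT2B11, 13 and 2. Summed over these 7 genes, the level was 2.21 ± 0.31 CPM (SD, n = 6, 254 reads) after siCHKA and 2.27 ± 0.54 CPM (SD, n = 6, 215 reads) after siNT. Reads that aligned to several of these genes were discarded in the counting and are missing from every value here.

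Compared per kilobase of canonical transcript, the levels of the enzymes spanned a wide range. The order depends on these lengths, which came from a later annotation than the one the reads were counted on. In mean CPM after siNT, SRD5A1 (34.4, transcript of 7035 bases) was above HSD17B11 (15.3, transcript of 1782 bases). After siNT, HSD17B10 (124 ± 6.37 CPM per kb, SD, n = 6) and HSD17B4 (109 ± 5.21) led, with overlapping ranges. SRD5A3 (10.2 ± 0.82) and HSD17B11 (8.58 ± 1.22) overlapped each other at the next level. SRD5A1 (4.89 ± 0.52) and HSD17B6 (3.65 ± 0.84) followed, again overlapping. UGT2B15 (0.64 ± 0.19), UGT2B17 (0.19 ± 0.10), AKR1C3 (0.10 ± 0.07) and UGT2B11 (0.05 ± 0.03) closed the order, and each overlapped the next. After siCHKA the order was the same, but HSD17B10 (115 ± 6.37 CPM per kb) no longer overlapped HSD17B4 (97.1 ± 2.80), HSD17B6 (1.40 ± 0.30) no longer overlapped SRD5A1 (4.75 ± 0.48), UGT2B15 (0.61 ± 0.09) no longer overlapped UGT2B17 (0.14 ± 0.06), and HSD17B11 (5.21 ± 0.76) now overlapped SRD5A1 rather than SRD5A3 (11.7 ± 0.68). Counted per kilobase of unique windows instead, UGT2B15 came to 1.00 CPM after siNT and 0.95 after siCHKA, still below HSD17B6 (3.77 and 1.44).

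Beyond these enzymes, 54 other genes of androgen synthesis and metabolism were listed, of which 53 were matched to the files by their current Ensembl identifier (SRD5A2 was not matched) and 25 had enough reads to be tested. By edgeR's test 6 were lower, 9 were higher and 10 were not called after siCHKA, beside the background of 30.1% and 32.1% over all genes tested. Their median log2 fold change was -0.06. With total reads alone 2 were lower and 10 higher. Without siCHKA replicates 1, 3 and 5 the counts were 7 lower and 7 higher, and without replicates 2, 4 and 6 they were 7 and 9. The 28 untested genes had at most 20 counts in any sample, among them CYP17A1 (25 reads after siCHKA and 20 after siNT), the lyase that makes androgen precursors, and HSD3B1 (34 and 46 reads), which makes androstenedione from its precursor. These 2 genes, and the dehydrogenases HSD17B2, HSD17B3, HSD17B7, HSD17B8 and HSD17B13, were named after their values were seen.

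**Figure D3:**
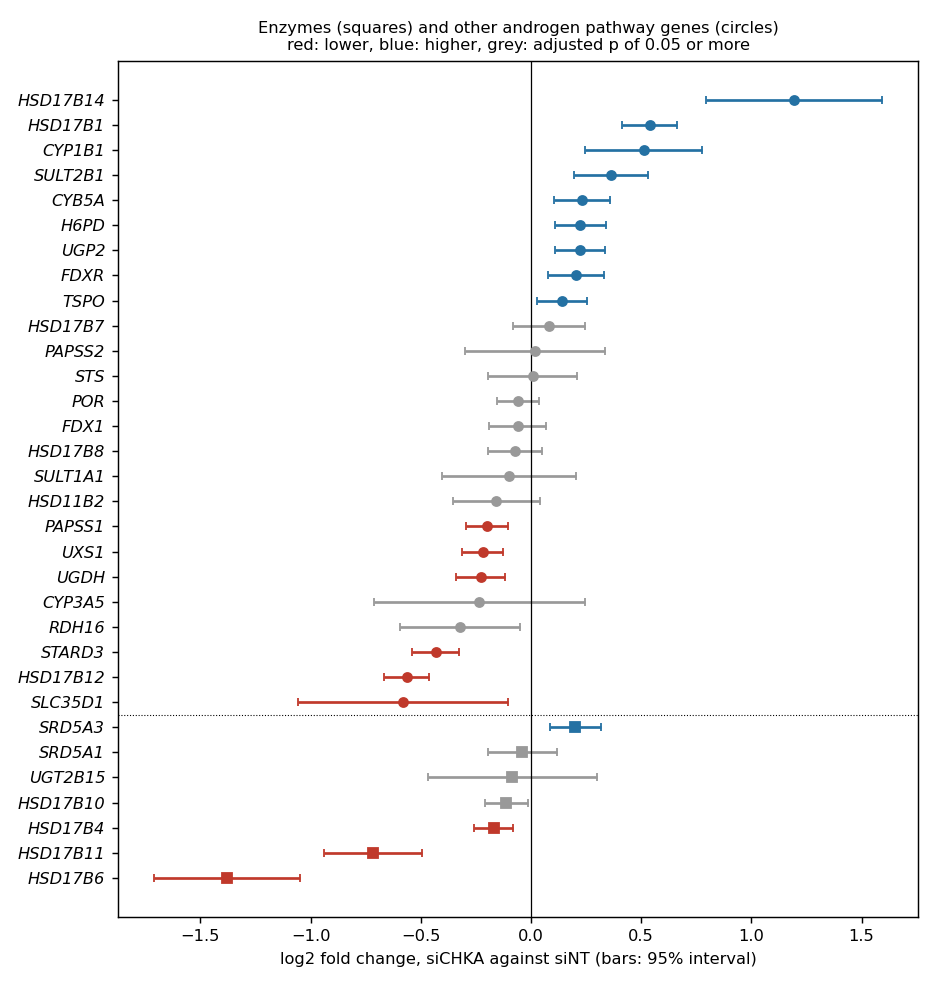
Log2 fold change of siCHKA against siNT (horizontal axis, with 95% intervals) for the 7 tested enzymes (squares) and the 25 other tested androgen pathway genes (circles), coloured by call at an adjusted p below 0.05. HSD17B6 at -1.38 lies farthest to the left and HSD17B14 at 1.19 farthest to the right.

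The other 17β-hydroxysteroid dehydrogenases moved both ways. HSD17B12, which elongates very long chain fatty acids and can reduce estrone, was 55.3 ± 3.52 CPM in siNT and 37.4 ± 1.40 CPM in siCHKA samples (SD, n = 6 each), so that it fell by 0.56 on the log2 scale (edgeR adjusted p = 5.94e-08). HSD17B14, which oxidizes estradiol and testosterone in vitro, rose from 1.00 ± 0.24 to 2.31 ± 0.60 CPM (log2 fold change 1.19, adjusted p = 7.41e-05). Its log2 fold change was 1.44 without siCHKA replicates 1, 3 and 5 and 0.845 without replicates 2, 4 and 6, called higher each time. HSD17B1, which reduces estrone to estradiol, rose from 17.7 ± 0.93 to 25.8 ± 2.02 CPM (0.54, adjusted p = 1.25e-06). The groups did not overlap for any of these genes, beside 21.5% of all genes tested lower and 19.1% higher without overlap. HSD17B7 (0.08, adjusted p = 0.412, with 41.5% unique windows) and HSD17B8 (-0.07, adjusted p = 0.319) were not called, and HSD17B2, HSD17B3 and HSD17B13 had at most 4 counts in any sample.

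The 4 listed genes around UDP-glucuronate, the donor of the UGT2B enzymes, include genes that make, carry or consume it. Of these, 3 were lower and 1 was higher, beside 30.1% and 32.1% of all genes tested. UGDH, which makes UDP-glucuronate, had a log2 fold change of -0.23 (edgeR adjusted p = 0.00217), UXS1, which consumes it, -0.22 (adjusted p = 0.000629) and the transporter SLC35D1 -0.58 (adjusted p = 0.0464), while UGP2, which makes UDP-glucose, was at 0.22 (adjusted p = 0.00271). SLC35D1 and UGP2 were named after their values were seen. With total reads alone UGDH (-0.08, adjusted p = 0.261), UXS1 (-0.07, adjusted p = 0.248) and SLC35D1 (-0.43, adjusted p = 0.135) were not called lower, so these calls depended on the scaling. SLC35D1 had 59 reads after siCHKA and 74 after siNT in overlapping groups, and its call was lost in 13 of the 19 other fits that tested it, among them DESeq2 (adjusted p = 0.102) and the fit without the filter (adjusted p = 0.111). The call of UGP2 was lost without siCHKA replicates 1, 3 and 5 (0.12, adjusted p = 0.0698). 

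Among the remaining genes that the naming rule selected, STARD3, a late endosomal cholesterol transporter, fell (-0.43, edgeR adjusted p = 2.63e-06), as did PAPSS1, which makes the sulfate donor (-0.20, adjusted p = 0.00178, but -0.05 and adjusted p = 0.426 with total reads alone). CYP1B1, which hydroxylates estrogens, rose (0.51, adjusted p = 0.00352), with SULT2B1, a hydroxysteroid sulfotransferase (0.36, adjusted p = 0.00128). CYB5A, the cofactor of the CYP17A1 lyase step (0.23, adjusted p = 0.00548), and H6PD, which supplies NADPH to HSD11B1 (0.22, adjusted p = 0.00355), rose as well. In CPM the groups overlapped for CYP1B1, SULT2B1, CYB5A and H6PD. They did not for STARD3 and PAPSS1, beside 21.5% of all genes tested lower without overlap. The log2 fold change of SULT2B1 was 0.49 without siCHKA replicates 1, 3 and 5 and 0.21 (adjusted p = 0.044) without replicates 2, 4 and 6. HSD11B1, named after its values were seen, had at most 3 counts in any sample. The aldo-keto reductases beside AKR1C3 were all under the filter. AKR1C2, which inactivates dihydrotestosterone to androstanediol, had 73 reads after siCHKA (7 to 20 per sample) and 27 after siNT (2 to 6 per sample). Its groups did not overlap. The share of 19.1% higher without overlap is of the genes tested and does not include AKR1C2. Without the filter the log2 fold change of AKR1C2 was 1.11 (adjusted p = 0.00797), in a fit that called 4781 of 32250 genes higher. Of its 40-base windows 46.9% were unique, so its reads cover less than the whole transcript. AKR1C1 had 24 and 10 reads and AKR1C4 had 0 reads in all 12 samples.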

How the data were processed

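The 6 siCHKA and 6 siNT samples were grouped by the sample group in their labels. The authors sequenced single-end reads of 40 bases and, per the submitters' processing notes, used TopHat2 2.0.4, HTSeq 0.5.3p9, DESeq 1.10.1 and GRCh37. They deposited raw read counts per Ensembl gene, 4 files per sample, without normalization. The strand setting and the overlap mode are not given in the sources used here. Reads not on a gene (3.95% to 5.97%), on several genes (2.82% to 2.93%) or aligned more than once (26.1% to 30.6%) were left out. These shares are of all entries tallied in the counting, which were not compared with the number of reads sequenced. The enzymes and lists were chosen with earlier results of these data known.

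The 4 files of a sample were summed. Counts were analysed in R 4.3.3 with edgeR 4.0.16 (filterByExpr, TMM, quasi-likelihood test, no covariate, Benjamini-Hochberg adjustment over all genes tested). Single enzymes were also compared by exact permutation tests of log2 CPM (prior count of 2), 11 in all, unadjusted. Standard errors were derived from each fold change and its F statistic, and intervals of 95% from 1.96 of them. These intervals are a normal approximation. They leave out the limited degrees of freedom of the F test and are therefore somewhat too narrow. The fits were tested on simulated data. Unique windows and coordinates came from GENCODE 44 on GRCh38, which named 82.8% of the identifiers, and not from the build of the counts. Named genes were CHKA, the 10 enzymes, their close paralogues and the up to 6 other listed genes with the largest called change in each direction at 1 CPM or more. Alternatives were RLE normalization, DESeq2 1.42.0, no filter, a minimum of 10 counts in each sample, a replicate block, each sample left out, either siCHKA set left out and, added after seeing the data, total reads alone. Python 3.11.15, numpy 2.4.6 and scipy 1.17.1 were used for the rest.

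The replicate numbers gave no sign of pairing in the counts, which cannot exclude a paired design. No column of an unlisted sample was present. Some of the marker genes are not reported here.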

Additional observations from a re-analysis of the deposited data

Results flagged for a closer look

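The enzymes and CHKA gave 22 groups of 6 samples in which a sample far from the others was looked for by Dixon's ratio (the gap to the nearest sample over the whole range, critical value 0.625), and chance would give about 1.1 of them. In AKR1C3, siCHKA replicate 5 was low at a ratio of 0.694: its log2 CPM was -3.11 against -2.16 to -1.75 in the other 5, and it held 0 reads. In UGT2B15, siNT replicate 1 was low at a ratio of 0.775: its log2 CPM was -0.49 on 7 reads, against 0.53 to 0.82 in the others. Without that sample the log2 fold change of UGT2B15 was -0.22 (edgeR adjusted p = 0.309).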

How the results depend on the processing

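HSD17B6 (-1.55 to -1.23) and HSD17B11 (-0.81 to -0.56) were lower and called in all 20 alternative fits. With total reads alone, chosen after seeing the data, SRD5A1 (0.11), HSD17B10 (0.0404) and UGT2B15 (0.0703) changed sign, HSD17B4 was at -0.02 and lost its call, and 2 other pathway genes were lower. Without siCHKA replicates 1, 3 and 5, 0 enzymes were higher (SRD5A3 at 0.15) and UGT2B15 was at 0.00969. Without replicates 2, 4 and 6, SRD5A1 was at 0.0854. The cause was not tested. With each sample left out in turn, 3 to 4 enzymes were lower and 1 higher, and 5 to 7 other pathway genes were lower and 8 to 9 higher. The replicate block gave 4273 lower and 4494 higher genes and changed no enzyme's call. Same-numbered samples did not deviate together on average (correlations -0.435 to 0.382, mean -0.037, against 0.0076 for other pairs). The counts thus gave no sign of pairing by number, but this cannot exclude a paired design. With at least 10 counts in every sample UGT2B15 could not be tested. Depth limits AKR1C3 and the UGT2B genes.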

Other observations

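CYP11A1, the mitochondrial enzyme that begins steroid synthesis by cleaving the side chain of cholesterol, was singled out after its values were seen. It had 15 reads in the siCHKA samples together (1 to 4 per sample) and 61 in the siNT samples (6 to 18 per sample). The groups did not overlap. The share of 21.5% lower without overlap is of the genes tested and does not include CYP11A1. CYP11A1 was under the filter on low counts. Without the filter its log2 fold change was -2.27 (edgeR adjusted p = 7.38e-06), in a fit that called 4686 of 32250 genes lower.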
